A study of Monodelphis domestica with 2 samples.

Results

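IT_B is 1 of the 4 intratelencephalic (IT) subclasses, IT_A to IT_D, that the study's deposited annotation gives for neurons of area V1, the primary visual cortex, in a marsupial, the opossum Monodelphis domestica. Its members are the nuclei whose subclass label is IT_B, and there were 1726 of them among 20150 glutamatergic nuclei and 32764 nuclei with any subclass label. They came from 2 adult male opossums aged 1.5 years (animal 1, 851 nuclei) and 2 years (animal 2, 875 nuclei). V1 of both hemispheres was pooled within each animal, nuclei were sorted by the DNA dye Draq5, and the suspension of each animal was loaded as 2 droplet libraries, named 1A and 1B for animal 1 and 2A and 2B for animal 2 here. The animals were not treated and form 1 group, so an animal counts as a replicate and its libraries as technical repeats. Errors below are SDs over the 2 animals (n = 2).

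IT neurons are glutamatergic cells of the neocortex whose axons stay within the telencephalon, unlike those of the L5PT (pyramidal tract) and L6CT (corticothalamic) subclasses. In rodents and primates the IT neurons of layer 4 receive the main thalamic input to sensory cortex, and the nuclear receptor RORB is their classical marker. CUX2 is a homeobox factor of upper layers and WHRN encodes whirlin, a PDZ scaffold protein. These 3 genes had been set as the markers of IT_B.

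IT_B made up 9.37% of the glutamatergic nuclei of animal 1 (95% exact Clopper-Pearson interval 8.78% to 9.98%) and 7.91% of those of animal 2 (7.41% to 8.43%), a mean of 8.64% ± 1.03. The libraries of animal 1 gave 9.13% and 9.61%, and those of animal 2 gave 7.96% and 7.87%. The 2 libraries of an animal lay close together, and both libraries of animal 1 were above both of animal 2. Between libraries of the same animal the shares did not differ detectably by a two-sided Fisher's exact test, with p = 0.449 in animal 1 and p = 0.886 in animal 2 (both 0.886 after Benjamini-Hochberg adjustment over the 2 tests). As a share of IT nuclei IT_B took 12.1% ± 1.89, and as a share of all labelled nuclei 5.27% ± 0.0497, where the animals nearly coincided. Intervals cover counting error only.

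IT_B nuclei were about as deeply sampled as their neighbours. The median was 8351 ± 467 UMIs (unique molecular identifiers, each counting an RNA molecule) and 3091 ± 173 genes per IT_B nucleus, against 8065 ± 10.3 UMIs and 3119 ± 75.0 genes in the other glutamatergic nuclei. Scrublet had called 1.27% ± 0.0251 of the IT_B nuclei doublets, below the 2.72% ± 0.544 of the other glutamatergic nuclei. Between 16 and 30 barcodes were shared by any pair of libraries, and 0 of these were IT_B nuclei in both.

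Levels below are CPM values, the UMIs of a gene scaled to 1000000 UMIs summed over the nuclei of a subclass in an animal. IT_B was compared with the other glutamatergic nuclei, summed over the other 7 subclasses, as a log2 ratio of CPM after 1 CPM was added to both sides. A gene was called higher or lower when it differed at least 2-fold the same way in both animals and reached 20 CPM on its higher side in both. The annotation itself was made by clustering these nuclei on their expression, so every gene value here describes the cluster, and no p-value is given for genes. A CPM value also depends on transcript length and annotation, and so levels were compared between subclasses for the same gene only.

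Of the 3 markers, only RORB was called against the other glutamatergic nuclei as a whole. With the 7 other subclasses weighted equally the log2 ratio of CUX2 was 1.35, and against the other IT subclasses alone that of WHRN was 1.25. RORB was at 1373 and 1315 CPM in the libraries of animal 1 and at 1638 and 1553 CPM in those of animal 2. The other glutamatergic nuclei held 183 to 220 CPM in the 4 libraries. The groups did not overlap, and the log2 ratio was 2.83 ± 0.31. RORB was highest in IT_B of the 8 subclasses in both animals, but it was not particular to IT_B. The next subclass was IT_C at 808 CPM, followed by L5NP (near-projecting) at 727 CPM, and only the ratio in animal 2 (log2 1.04) passed 2-fold over IT_C, with 0.67 in animal 1. IT_A, the most numerous subclass, had 115 CPM.

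CUX2 showed another order. It was at 343 CPM in animal 1 and 531 CPM in animal 2 in IT_B, against 203 and 331 CPM in the other glutamatergic nuclei (log2 ratio 0.72 ± 0.05, not called). IT_D (581 CPM) was above IT_B in both animals, and IT_A (426 CPM) was above it in animal 1 and below it in animal 2. IT_C had 31.9 CPM. RORB in IT_B thus lay far above IT_A, and CUX2 far above IT_C.

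WHRN was at 36.5 and 50.4 CPM in IT_B, against 34.9 and 29.1 CPM in the other glutamatergic nuclei (log2 ratio 0.42 ± 0.50, not called). L5NP, L6CT and L6b nuclei had 86.3, 80.7 and 80.3 CPM, all above IT_B in both animals. Within the IT subclasses IT_B was nevertheless the highest, with 18.9 CPM in IT_A, 11.5 in IT_C and 10.8 in IT_D.

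**Figure D1:**
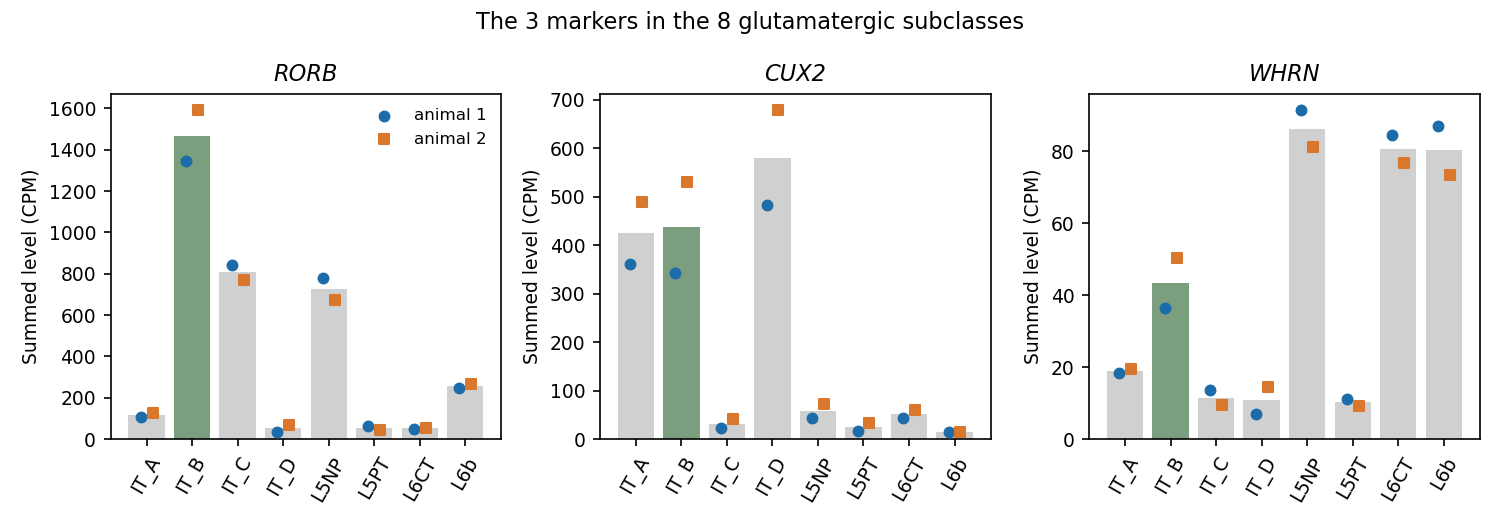
Levels of RORB, CUX2 and WHRN in CPM (y axes, linear, from 0) in the 8 glutamatergic subclasses; bars are means of the 2 animals, points are the animals, and IT_B is green. RORB peaks in IT_B, CUX2 is as high in IT_A and higher in IT_D, and WHRN is higher in L5NP, L6CT and L6b.

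The same was seen nucleus by nucleus. With each nucleus thinned to 2000 UMIs, RORB was detected in 90.3% ± 2.71 of IT_B nuclei, 64.7% ± 4.82 of IT_C nuclei, 63.9% ± 0.934 of L5NP nuclei and 14.8% ± 1.12 of IT_A nuclei. Oligodendrocytes, which should lack it, gave 5.05% ± 1.97 and Pvalb interneurons 2.34% ± 0.796 at the same depth, so the IT_B share lay far above these low shares. RNA free in the droplets can give such low shares in nuclei that do not express a gene. Astrocytes gave 56.5% ± 5.03, below IT_B in both animals but far above these low shares. Before thinning the median depth was 1917 ± 10.6 UMIs in oligodendrocytes and 7091 ± 147 UMIs in Pvalb interneurons. Thinning left out the nuclei under 2000 UMIs, which were 1241 of 2280 oligodendrocytes in animal 1 and 960 of 1767 in animal 2, but 0 and 3 IT_B nuclei. Without thinning, 99.1% of IT_B nuclei had a RORB UMI. At 2000 UMIs the median was 2 RORB UMIs per IT_B nucleus in animal 1 and 3 in animal 2, and 99 of 851 nuclei (11.6%) and 68 of 872 (7.80%) had none. CUX2 was detected in 54.1% ± 9.08 and WHRN in 7.82% ± 1.59 of thinned IT_B nuclei, and RORB and CUX2 together in 41.6% of animal 1 and 55.5% of animal 2.

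Of 6079 genes that reached the minimum level, 152 (2.50%) were called higher and 229 (3.77%) lower in IT_B. A symbol was carried by 99 and 163 of these. The median log2 ratio over all 6079 genes was −0.11, so the typical gene was near equal. In all 4 libraries separately, 141 of the 152 and 201 of the 229 also differed at least 2-fold. The 25 genes with a symbol and the highest ratios are described here by role.

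Several of the 25 encode secreted signals or proteins of the matrix. TAFA4, a secreted chemokine-like protein, was at 181, 166, 218 and 203 CPM in libraries 1A, 1B, 2A and 2B and at 9.49 to 18.3 CPM in the other glutamatergic nuclei (log2 ratio 3.75 ± 0.39). Its family member TAFA2 was at 1712 and 1065 CPM in the 2 animals against 329 and 170 (2.51 ± 0.19). The ratio was similar in both animals although the TAFA2 level differed between them. BMP6, a bone morphogenetic protein, was at 52.9 and 45.4 CPM against 3.61 and 2.68 (3.60 ± 0.08), and FRZB, a secreted Wnt antagonist, at 56.3 and 59.7 CPM against 5.11 and 4.15 (3.39 ± 0.23). IGFBP7, which binds insulin-like growth factors, was at 32.4 and 62.9 CPM against 7.54 and 8.52 (2.36 ± 0.55). FBLN7, a fibulin of the extracellular matrix, and CHST15, a sulfotransferase that modifies chondroitin sulfate, had log2 ratios of 2.59 ± 0.18 and 2.64 ± 0.14.

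The highest ratio to the pooled rest among genes with a symbol belonged to PLD5, a member of the phospholipase D family. PLD5 was at 364, 367, 445 and 474 CPM in the 4 IT_B libraries and at 20.9 to 24.5 CPM in the other glutamatergic nuclei, with no overlap (log2 ratio 4.14 ± 0.12). With the 7 other subclasses weighted equally its ratio was 3.40, below that of TAFA4 at 4.91. In thinned nuclei it was detected in 47.7% ± 3.86 of IT_B, 16.7% ± 8.46 of IT_D and 3.22% ± 0.0691 of IT_A nuclei. Outside the glutamatergic class, Pvalb interneurons had 275 CPM of it and Vip interneurons 215 CPM. BRINP3, a neural protein induced by BMP and retinoic acid, was among the broadest: 81.4% ± 12.0 of thinned IT_B nuclei had a UMI against 39.1% ± 13.2 in IT_A. Its level was 1461 and 889 CPM against 285 and 170 (log2 ratio 2.37 ± 0.02).

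Transcriptional regulators among the 25 were RORB, TP63, MAF, DACH1 and ZBTB7C. TP63, a p53 family factor best known from epithelia, was at 39.1 and 65.4 CPM against 2.26 and 6.68 (log2 ratio 3.37 ± 0.36), and 312 and 510 UMIs stood behind these values. MAF, a leucine zipper factor known from cortical interneurons, was at 67.2 and 54.3 CPM against 12.4 and 12.1 (2.21 ± 0.19). In Pvalb and Sst interneurons of the same libraries MAF was at 647 and 642 CPM, far above IT_B. DACH1 was at 399 and 278 CPM against 68.8 and 62.7 (2.32 ± 0.27), and ZBTB7C at 340 and 598 CPM against 73.2 and 112 (2.30 ± 0.15).

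Others encode proteins that bind or move calcium, or belong to a complex that calcium regulates. RYR1, the ryanodine receptor that releases calcium from internal stores, was at 36.9 and 46.5 CPM against 4.28 and 5.84 (log2 ratio 2.82 ± 0.03). SLC24A3, an exchanger of sodium, calcium and potassium, was at 184 and 167 CPM against 28.4 and 26.3 (2.64 ± 0.02). TNNT2, the tropomyosin-binding troponin T of heart muscle, was at 69.9 and 68.3 CPM against 10.1 and 8.53 (2.77 ± 0.13). NECAB1, a neuronal calcium-binding protein, was at 71.2 and 126 CPM against 20.4 and 13.9 (2.42 ± 0.94), the widest spread of the 25. L6b nuclei had 689 CPM of NECAB1, and with the 7 other subclasses weighted equally its log2 ratio was −0.21.

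The rest had mixed roles. NMBR, the receptor for neuromedin B, was at 93.1 and 71.2 CPM against 11.9 and 10.4 (log2 ratio 2.77 ± 0.14). PDE3A, which degrades cyclic nucleotides, was at 72.9 and 45.0 CPM against 9.75 and 4.76 (2.89 ± 0.15), although L6b, at 112 CPM, was above IT_B and the ratio with equal weights was 1.16. SNTB1, a syntrophin that binds the dystrophin complex, had a ratio of 2.79 ± 0.42, and here IT_D (180 CPM) was above IT_B (102 CPM) in both animals, with a ratio of 1.73 at equal weights. PSTPIP2, an adaptor of the actin cytoskeleton, KANK1, a regulator of the cell cortex, and FAM163A had ratios of 3.27 ± 0.20, 2.75 ± 0.07 and 2.55 ± 0.43. ALDH1L1, a folate enzyme widely used as an astrocyte marker, was at 34.6 and 38.0 CPM against 6.18 and 7.08 (2.29 ± 0.03).

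Because ALDH1L1 marks astrocytes, markers of other cell types were read in the same sums. The 6 astrocyte markers summed to 262 and 423 CPM in IT_B, 281 and 318 CPM in the other glutamatergic nuclei and 20103 and 19126 CPM in astrocytes, and ALDH1L1 was the only 1 of the 6 called. The astrocyte sum of IT_B was thus above the rest in animal 2 and below it in animal 1, and the part of astrocyte RNA in the ALDH1L1 value was not tested. In thinned nuclei ALDH1L1 was detected in 6.92% ± 1.02 of IT_B, 1.33% ± 0.421 of IT_A and 51.3% ± 2.22 of astrocyte nuclei. The 12 GABAergic markers summed to 47.5 and 51.1 CPM in IT_B and 51.6 and 52.3 CPM in the rest. The 5 oligodendrocyte markers summed to 104 and 90.9 CPM against 97.1 and 96.4. Markers of oligodendrocyte precursors (2.63 and 4.11 CPM), microglia (3.64 and 1.80 CPM) and endothelium (20.3 and 21.2 CPM) were low in IT_B, and 0 of these lists' genes were called. Of the 4 general glutamatergic markers with a symbol, 0 were called, with sums of 668 and 697 CPM in IT_B against 564 and 593 CPM.

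The lowest ratios belonged to PRLR, SORCS1, NRP1, BCL11B and GADL1. PRLR, the prolactin receptor, was at 1.50 and 1.41 CPM in IT_B (12 and 11 UMIs) against 62.4 and 31.8 CPM in the other glutamatergic nuclei (log2 ratio −4.21 ± 0.63). SORCS1, a sorting receptor, was at 6.77 and 8.21 CPM against 143 and 118 (−3.95 ± 0.37), and its level in L5PT nuclei was 1075 CPM. NRP1, a co-receptor for semaphorins, was at 9.03 and 9.37 CPM against 155 and 128 (−3.80 ± 0.23). BCL11B, the zinc finger factor of subcortically projecting neurons, was at 29.6 and 30.0 CPM against 470 and 359 (−3.74 ± 0.29), and FOXP2, a forkhead factor of corticothalamic neurons, at 27.8 and 31.6 CPM against 404 and 318 (−3.55 ± 0.37).

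Several of these genes were also low in the other IT subclasses, to different extents. PRLR was at 2.90 CPM in IT_A, 3.04 in IT_C and 1.90 in IT_D, and its log2 ratio to these alone was −0.65. BCL11B was at 80.1 CPM in IT_C, 88.2 in IT_D and 118 in IT_A, so that IT_B (29.8 CPM) was the lowest of the 8. FOXP2 was at 21.5 CPM in IT_D and 47.2 CPM in IT_A, and IT_B lay within that range (−0.63 against the other IT subclasses alone). LUZP2 was different, with 490 CPM in IT_A and 36.0 CPM in IT_B (log2 ratio to all others −3.68 ± 0.10). The others of the 15 were GADL1, FSTL5, THSD4, MOB3B, SLC26A4 (the anion exchanger pendrin), KCNG1 (a modifying potassium channel subunit), ARHGAP22, SYT17 and KIRREL1, with ratios from −3.73 (GADL1) to −3.10 (KIRREL1). Against the other IT subclasses alone the ratios of these others ran from −3.43 (SYT17) to −0.99 (KIRREL1), and only KIRREL1 was under 2-fold. KCNG1 was at 2.38 and 2.05 CPM in IT_B against 29.6 and 26.1 CPM.

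**Figure D2:**
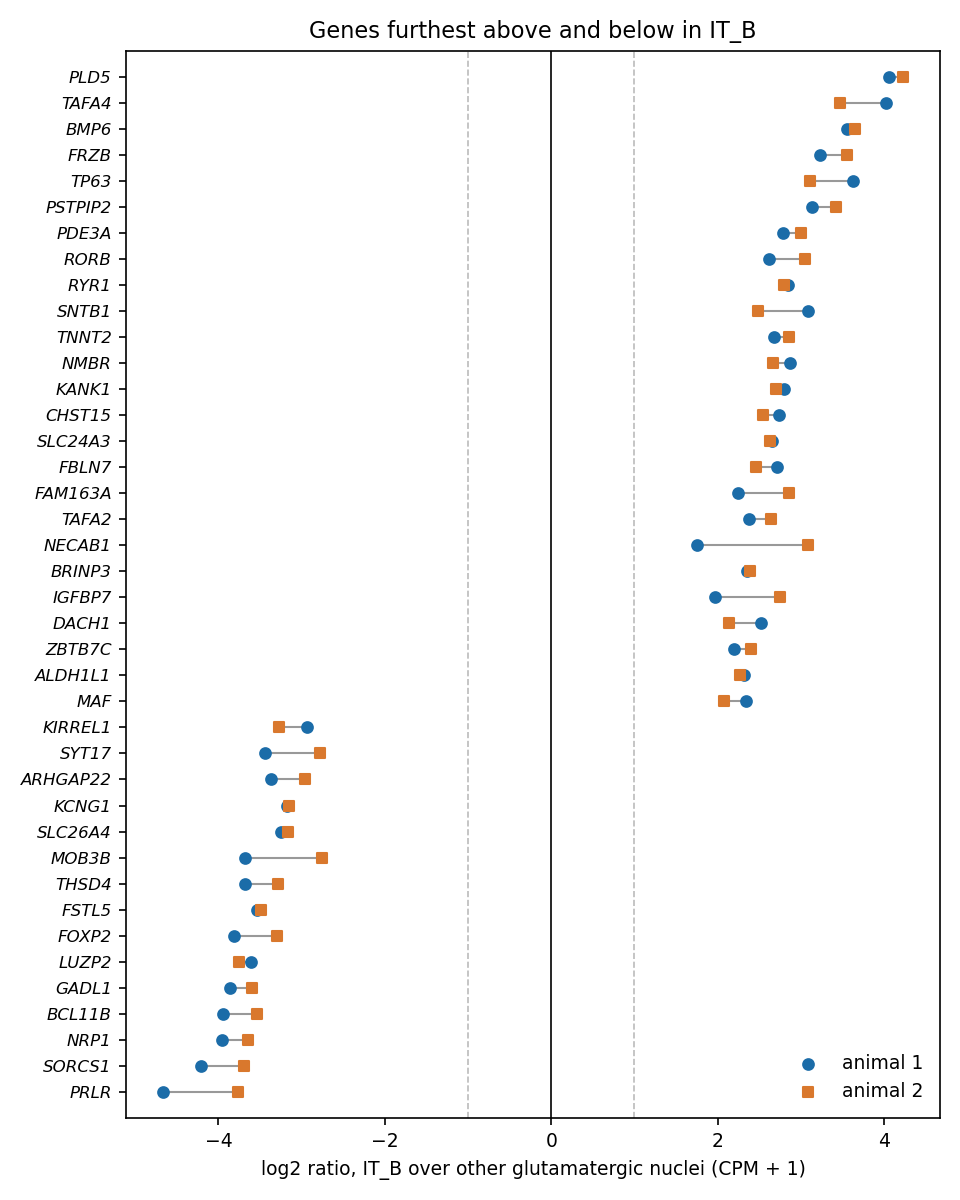
The log2 ratio of IT_B over the other glutamatergic nuclei (x axis, CPM + 1) for the 25 genes with a symbol called highest and the 15 called lowest (y axis); points are the 2 animals and dashed lines mark 2-fold. By the calling rule both animals lie on the same side for each gene, and NECAB1 has the widest gap among the higher genes.

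A gene above the sum of the rest need not lead in IT_B. Of the 152 genes called higher, 115 were highest in IT_B of the 8 subclasses in both animals. Over all 5583 genes at 20 CPM or more in IT_B of both animals, 337 (6.04%) were highest there, and for 37 (0.663%) the lead over the next subclass was at least 2-fold in both animals. The corresponding numbers of 2-fold leads were 15 genes in IT_A, 8 in IT_C, 79 in IT_D, 40 in L5NP, 36 in L5PT, 22 in L6CT and 75 in L6b. IT_D and L6b rest on few nuclei (373 IT_D nuclei), where low levels vary most.

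The longest leads belonged to BMP6, TAFA4, TP63, NMBR, KANK1, TNNT2, MAF, BRINP3, PLD5 and ALDH1L1. BMP6 stood 3.08 above the next subclass on the log2 scale (mean of the animals), TAFA4 3.07, TP63 2.85 and NMBR 2.54. For TAFA4, TP63, NMBR, KANK1, TNNT2 and MAF, IT_A had the highest mean among the other 7 subclasses, at 22.5, 6.27, 13.3, 25.3, 14.4 and 16.6 CPM. BMP6 was most abundant outside neurons, at 189 CPM in endothelial nuclei, and KANK1 was at 557 CPM in oligodendrocyte precursors, so a lead among glutamatergic subclasses was not a lead in the tissue. Detection in thinned IT_B nuclei was 29.0% ± 3.69 for TAFA4, 21.0% ± 6.04 for KANK1, 14.2% ± 2.05 for NMBR, 8.80% ± 2.64 for TP63 and 8.32% ± 1.87 for BMP6, and it was 4.61% or less in IT_A for each of these 5 genes.

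IT_B was lowest of the 8 subclasses in both animals for 612 of 4411 genes (13.9%) that all 7 others held at 20 CPM or more. The count was 280 with TMM scaling, which sets library factors by a trimmed mean of ratios, and 348 after thinning to 2000 UMIs. The 337 genes highest in IT_B became 488 with TMM scaling and 274 after thinning. A 2-fold gap to the next subclass was seen for 15 of the 612 lowest genes. These genes were looked up after the values had been seen. GRIK4, a kainate receptor subunit, was at 151 and 142 CPM in IT_B against 847 and 887 CPM in the rest, and the lowest mean elsewhere was 558 CPM in IT_C. CADM1, a synaptic cell adhesion molecule, was at 118 and 94.4 CPM against 728 and 595, and CALN1, a calmodulin-like protein, at 64.3 and 54.4 CPM against 343 and 356. NTSR1, the neurotensin receptor known from corticothalamic cells in mouse, was at 15.8 and 8.47 CPM, whereas the 7 others had 50.2 to 257 CPM. KCNN3, a calcium-activated potassium channel, SLC24A2, an exchanger related to SLC24A3, and TNR, the perineuronal matrix protein tenascin-R, were at 37.8, 239 and 22.5 CPM in IT_B. The next lowest means were 125 CPM for KCNN3 (L5NP), 697 CPM for SLC24A2 (IT_A) and 62.7 CPM for TNR (IT_C). Of the 2 related exchangers, SLC24A3 was thus called higher and SLC24A2 lower.

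**Figure D3:**
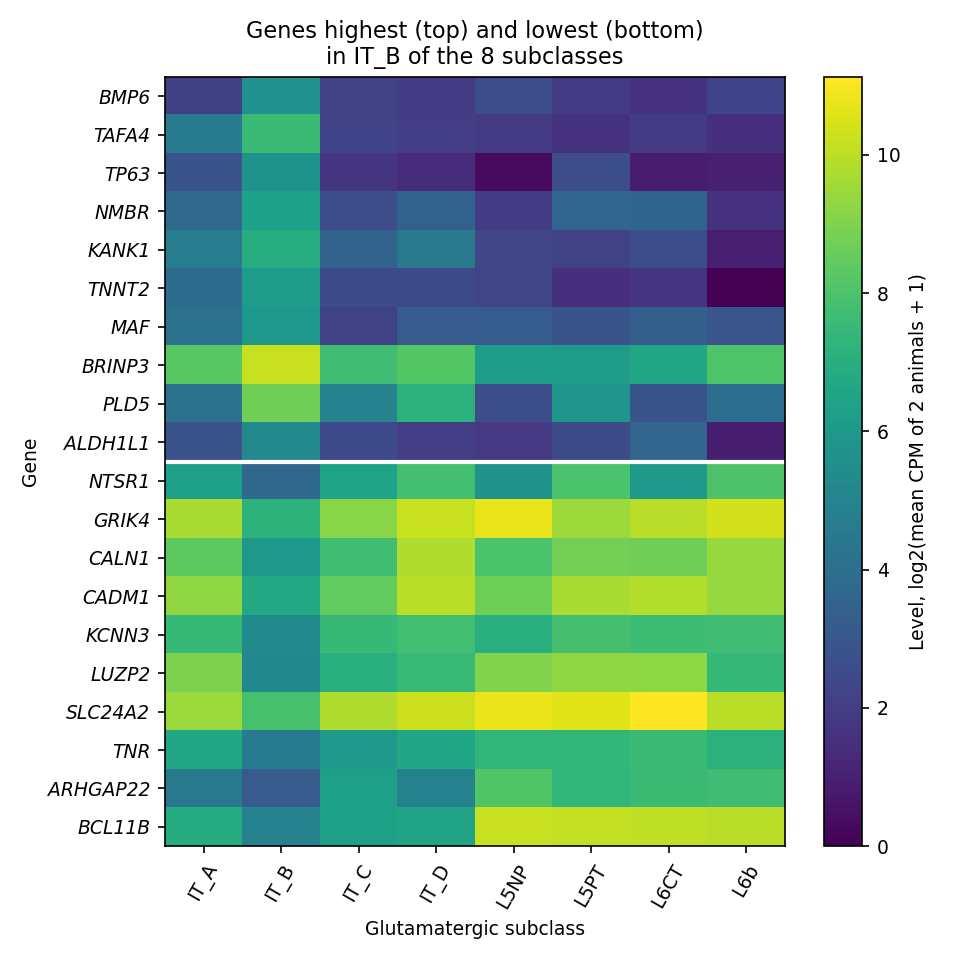
Levels, as log2 of the mean CPM of 2 animals plus 1 (colour), of the 10 genes with the longest lead in IT_B (above the white line) and the 10 with the widest gap below the next subclass (below the line) across the 8 glutamatergic subclasses (x axis). By the rule that chose the genes, the IT_B column is the brightest of its row in the upper block and the darkest in the lower block.

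Gene lists by function were then read as counts of called genes and medians, beside the 2.50% higher and 3.77% lower and the median of −0.11 over all genes. Of the list of layer 4 genes of mouse, 7 reached the minimum, with 2 called higher, 0 lower and a median log2 ratio of 0.72. RORB, CUX2 and WHRN, the markers set for IT_B, are among the 7, and the median is the value of CUX2. The list is therefore not independent of the markers. The 2 were RORB and KCNH5, a potassium channel of the ether-à-go-go family. KCNH5 was at 1207 and 1356 CPM in IT_B against 299 and 283 CPM (2.13 ± 0.17), and IT_C was next with 635 CPM. UNC5D, a netrin receptor of developing layer 4, reached 2136 and 2615 CPM against 1093 and 1145 CPM, but its ratio in animal 1 was 0.97, just under the 2-fold line. CUX1, BTBD3, CUX2 and WHRN had ratios from 0.29 to 0.72 and were not called.

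Among 26 transcription factors of projection neurons, RORB was called higher and 7 were called lower, with a median of −0.28. The 7 were BCL11B, FOXP2, ZFPM2, ETV1, LMO3, NFIA and SOX5. ZFPM2 was at 117 and 94.8 CPM against 598 and 560 (log2 ratio −2.44 ± 0.15), SOX5, a brake on the timing of deep-layer fates, at 309 and 220 CPM against 761 and 702 (−1.48 ± 0.26), and ETV1, a layer 5 factor, at 7.78 and 5.39 CPM against 39.0 and 28.3 (−2.19). Against the other IT subclasses alone the ratios of SOX5 and NFIA were under 2-fold, at −0.81 and −0.47.

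Glutamate receptors split. Of 16 at the minimum, 2 were called higher and 4 lower, with a median of −0.20. The 2 higher ones were metabotropic: GRM3 was at 893 and 1188 CPM against 429 and 500 (log2 ratio 1.15 ± 0.14), and GRM4 at 385 and 288 CPM against 137 and 103 (1.48 ± 0.01). GRM4 was also at 316 CPM in L5PT and 301 CPM in L5NP, and with the 7 other subclasses weighted equally its log2 ratio was 0.97, under 2-fold. The 4 lower ones were the AMPA subunit GRIA1 at 224 and 222 CPM against 609 and 524 (−1.34 ± 0.14), the kainate subunits GRIK3 (−3.05 ± 0.40) and GRIK4 (−2.56 ± 0.10), and the metabotropic GRM8 (−2.85 ± 0.77), whose ratio to the other IT subclasses alone was −0.38. The AMPA subunit GRIA2 was highest of the 8 in IT_B at 2786 and 2747 CPM, but only 0.29 above the rest. GRIK3 was at 47.9 CPM in IT_B and 818 CPM in IT_C. Of 11 GABA and glycine receptor genes, only GLRA2, the α2 subunit of the glycine receptor, was called higher (197 and 239 CPM against 57.8 and 59.0, 1.87 ± 0.18), 0 were called lower, and the median was 0.08. L6b, at 263 CPM, had a higher GLRA2 mean than IT_B.

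Of 32 potassium and HCN channel genes, 5 were called higher and 6 lower, with a median of −0.02. The 5 were KCNH5, KCNH1, KCNH7, KCND2 and KCNT2, and each was highest of the 8 subclasses in IT_B. KCNH1 was at 2653 and 2642 CPM against 1015 and 1005 (log2 ratio 1.39 ± 0.01), and KCNH7, of the related erg family, at 3410 and 3373 CPM against 1464 and 1441 (1.22 ± 0.01). KCND2, which carries A-type current, was at 3968 and 3918 CPM against 1792 and 1663 (1.19 ± 0.06), and KCNT2, a sodium-activated channel, at 1471 and 1617 CPM against 687 and 718 (1.13 ± 0.05). The replicates nearly coincided for these 4 genes. The 6 lower ones were KCNIP1 (−3.05 ± 0.31), a partner of A-type channels, KCNN3 (−2.22 ± 0.23), KCNAB1 (−1.96 ± 0.07), KCNK3 (−1.63 ± 0.36), KCNK10 (−1.46 ± 0.11) and KCNMB4 (−1.29 ± 0.03). KCNIP1 was similarly low in the other IT subclasses (7.02 CPM in IT_A, 16.4 in IT_C and 6.14 in IT_D, with 8.89 in IT_B), and its ratio to these alone was 0.021. The ratios of KCNH7 (0.84), KCNK3 (−0.74) and KCNMB4 (−0.81) to these alone were also under 2-fold.

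Of 16 sodium and calcium channel genes 0 were called higher and 2 lower, CACNA1E, the R-type calcium channel (577 and 621 CPM against 1519 and 1586, log2 ratio −1.37 ± 0.03, and −0.96 against the other IT subclasses alone), and the sodium channel subunit SCN3B (−1.30 ± 0.18). SCN1A, a sodium channel, was highest of the 8 in IT_B, but at 0.39 ± 0.02 above the rest it was not called.

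Adhesion and guidance genes were read in 3 lists, against a background in which more genes were lower (3.77%) than higher (2.50%). Of 19 cadherins and protocadherins, CDH12 alone was called higher (1335 and 1222 CPM against 597 and 568, log2 ratio 1.13 ± 0.04) and 5 were called lower, CDH9, PCDH17, PCDH7, CDH7 and CDH10, with ratios from −2.60 to −1.14 and a list median of −0.49. CDH9 was at 11.8 CPM in IT_B, 92.5 CPM in IT_A and 8.65 CPM in IT_D. Of 32 synaptic adhesion genes, the contactin CNTN6 was called higher (1.23 ± 0.02) and CNTNAP4, TENM1 and NTNG2 lower, with a median of −0.09. Against the other IT subclasses alone the ratios of CNTNAP4 and TENM1 were 0.30 and 0.25, so these calls came from the non-IT subclasses. The ratios of CDH12 (0.77), CNTN6 (0.79), CDH10 (−0.97) and PCDH7 (−0.87) were also under 2-fold there. The counts differed with the subclass compared, as did the shares over all genes. Against IT_D 6 of 18 cadherins and protocadherins were higher and 4 lower, and 8 of 31 synaptic adhesion genes were higher and 4 lower. Over all genes, 6.50% were higher and 4.89% lower in IT_B than in IT_D. Against IT_A 0 of 32 synaptic adhesion genes were called, where 2.99% of all genes were higher and 2.99% lower. Against IT_C 3 of 32 were higher and 3 lower, beside 3.51% and 3.00% over all genes. Of 29 axon guidance genes, the ligand SLIT2 was called higher (492 and 454 CPM against 186 and 206, 1.27 ± 0.18), and NRP1, SEMA5B, PLXND1 and EPHB6 lower, with a median of −0.30. Against the other IT subclasses alone SLIT2 was at 0.92 and EPHB6 at −0.73, and EPHB6 was also under 2-fold after thinning (−0.83). PLXND1, a semaphorin receptor, was at 14.1 CPM in IT_B and at 63.5, 118 and 116 CPM in IT_A, IT_C and IT_D. DCC, the netrin receptor, had ratios of 0.97 and 1.24 in the animals and was not called.

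Neuromodulator receptors were mostly below the minimum, and 10 of 43 with a symbol reached it. HTR7, a serotonin receptor, was called higher (147 and 152 CPM against 68.2 and 59.5, log2 ratio 1.22 ± 0.17), and the nicotinic subunit CHRNA4 (−2.64 ± 0.52) and the peptide receptor VIPR2 (−1.18 ± 0.08) lower. Against the other IT subclasses alone HTR7 was at 0.91 and VIPR2 at −0.99, both under 2-fold. HTR2A was highest of the 8 in IT_B (58.9 and 45.9 CPM) but not called at 0.79 ± 0.13, with 1.60 when the 7 other subclasses were weighted equally. Of the activity-regulated genes only 3 of 24 with a symbol reached the minimum, and BDNF, a neurotrophin, was called lower at 7.65 and 11.5 CPM against 35.1 and 60.4 (−2.17 ± 0.16).

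**Figure D4:**
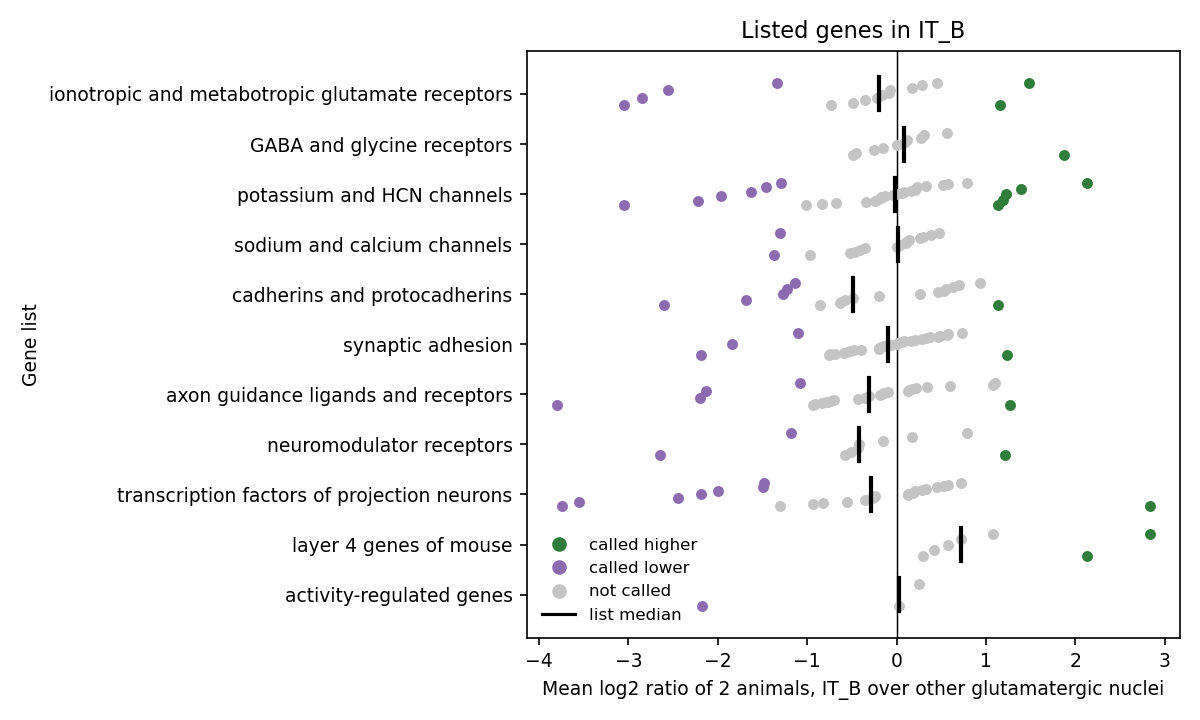
The mean log2 ratio of 2 animals of IT_B over the other glutamatergic nuclei (x axis) for each listed gene at the minimum level, by gene list (y axis); green points were called higher, purple lower and grey were not called, and black bars are list medians. The layer 4 list, which includes the markers RORB, CUX2 and WHRN, lies to the right of 0. Most called genes of the transcription factor, cadherin and guidance lists lie to the left.

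Against single subclasses, IT_B was nearest to IT_A and IT_C by the number of called genes. From IT_A it differed in 179 genes higher (2.99%) and 179 lower (2.99%) of 5993, from IT_C in 212 (3.51%) and 181 (3.00%) of 6037, and from IT_D in 393 (6.50%) and 296 (4.89%) of 6047. Against the non-IT subclasses the counts were 348 (5.67%) and 345 (5.62%) for L5PT, 410 (6.55%) and 421 (6.73%) for L6CT, 390 (6.07%) and 468 (7.28%) for L5NP and 489 (7.81%) and 508 (8.11%) for L6b. IT_A stayed below IT_C with either animal alone, at 460 and 528 genes either way in animal 1 and 476 and 503 in animal 2. The subclasses differed in depth, from 90004800 UMIs in IT_A to 1054946 in L6b, and low levels vary more in small sums. The part of depth in this order was not tested.

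**Figure D5:**
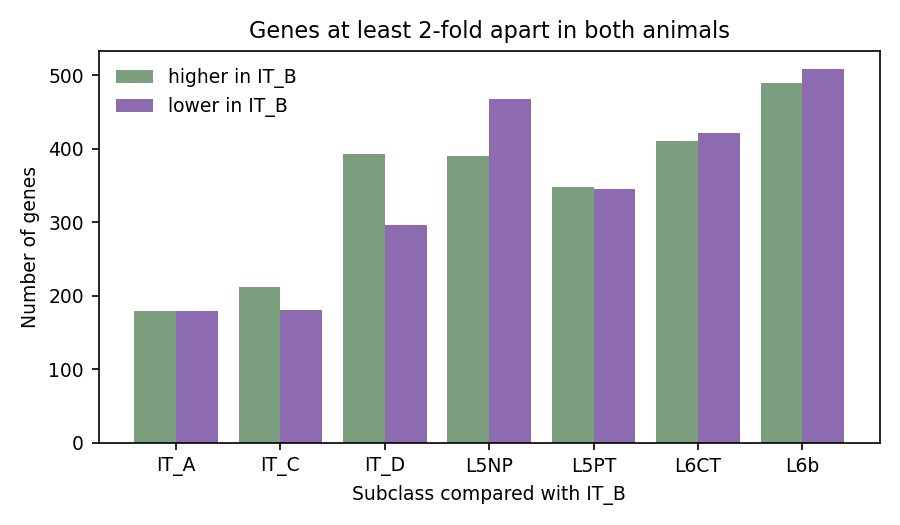
Number of genes (y axis, from 0) at least 2-fold higher (green) or lower (purple) in IT_B than in each other glutamatergic subclass (x axis) in both animals. The bars are shortest for IT_A and IT_C and tallest for L6b, which held the fewest UMIs.

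For each other IT subclass, some of the 8 genes furthest each way from IT_B are named here, chosen after their values were seen. Over IT_A, RORB had a log2 ratio of 3.67 ± 0.0037, and VWC2, a secreted BMP-binding protein, was at 70.5 CPM against 4.05 (3.81 ± 0.26). Below IT_A lay OTOF, the calcium sensor otoferlin (1.53 CPM against 32.2, −3.65 ± 0.33), the cation channel TRPC6 (1.77 against 39.0, −3.79 ± 0.95), GRAMD2A (10.0 against 126, −3.53 ± 0.20) and SLC24A4 (23.4 against 213, −3.15 ± 0.18). SLC24A4 belongs to the same exchanger family as SLC24A2 and SLC24A3.

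Over IT_C, genes among the 8 with the largest ratios were TAFA4 (5.36 ± 0.07), the receptor tyrosine kinase RET (36.5 CPM against 0.726, 4.43 ± 0.14), the heparan sulfate enzyme NDST4 (140 against 6.23, 4.24 ± 0.91) and CUX2 (3.77 ± 0.18). Below IT_C were GRIK3 (−4.06 ± 0.25), IL1RAPL2 (0.381 CPM against 31.4, −4.55 ± 0.18), ETV1 (6.58 against 78.0, −3.40 ± 0.32) and FSTL5 (25.3 against 315, −3.55 ± 0.26). BTBD3, CUX1, CUX2 and WHRN of the layer 4 list were called higher over IT_C, whereas RORB and KCNH5 were called higher over IT_A.

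Over IT_D, SGCD, a sarcoglycan, was at 428 CPM against 8.74 (5.56 ± 0.81), TAFA2 at 1388 against 33.8 (5.28 ± 0.51) and TRPM3, a cation channel, at 501 against 19.2 (4.78 ± 0.86). Below IT_D were the mechanosensitive channel PIEZO2 (5.73 CPM against 1444, −7.81 ± 0.69), the nuclear receptor NR4A2 (0.766 against 157, −6.51 ± 0.18), SULF1 (1.58 against 170, −6.09 ± 0.33) and the chloride channel CFTR (2.09 against 120, −5.29 ± 0.03). IT_D held 0.638% of the glutamatergic nuclei of animal 1 and 2.85% of those of animal 2, so its values in animal 1 were the least precise. By the 2-fold rule in both animals, 63 genes (42 with a symbol) were called higher in IT_B than in each of the other 3 IT subclasses. By the same rule 22 genes (15 with a symbol) were called lower than in each. GRM4, GLRA2 and KCNH1 were in the first set, and GRIK4, KCNN3, SEMA5B and PLXND1 in the second.

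IT_B carried a single type label in the annotation, so variation within it was read from single nuclei. Among 1688 genes with a mean of at least 0.2 UMIs per thinned nucleus, the median ratio of variance to mean was 1.08 in both animals. Pure counting noise gives 1. Thinning from a median of 8351 UMIs to 2000 itself draws the ratio towards 1. The median therefore cannot show how little IT_B nuclei vary beyond counting. The 12 genes furthest above it were chosen after the values had been seen, and were NRXN3, KCND2, OPCML, TENM2, HOMER1, NDST4, RBFOX1, TAFA2, MLIP, SLIT3, LRP1B and FAT3. HOMER1, a postsynaptic scaffold gene with an activity-induced short form, had ratios of 2.21 in animal 1 and 3.97 in animal 2. NRXN3, a neurexin, had 2.68 and 2.65, and KCND2 and TAFA2, both called higher in IT_B, had 2.32 and 2.27, and 2.31 and 2.00.

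Between the animals, 24 of 6150 genes (0.390%) were at least 2-fold higher in IT_B of animal 2 and 71 (1.15%) in IT_B of animal 1, with no overlap between libraries. In the other glutamatergic nuclei the same rule gave 16 (0.252%) and 33 (0.520%) of 6346. HOMER1 was at 800, 832, 2068 and 2050 CPM in libraries 1A, 1B, 2A and 2B, and the other glutamatergic nuclei had 733 CPM in animal 1 and 1608 CPM in animal 2. KLHL1, a neuronal kelch protein, was at 161 and 188 CPM in animal 1 and 43.9 and 36.2 CPM in animal 2, against 30.8 and 16.0 CPM in the other glutamatergic nuclei of the 2 animals. ANGPT1, an angiopoietin, was at 2.51 CPM in IT_B of animal 1 and 20.8 CPM in animal 2, against 23.8 and 34.8 CPM elsewhere.

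Most of these differences went the same way outside IT_B. The direction was shared by the other glutamatergic nuclei for 24 of 24 and 70 of 71 genes, of which 7 and 17 also met the rule there. Further examples were NAALAD2 (23.2 and 69.7 CPM), NOL11 (32.2 and 91.2) and RSPO2 (19.2 and 52.9), higher in animal 2, and TMEM255A (22.4 and 5.65), PRL (56.3 and 18.5), BCO1 (54.1 and 19.2) and SEZ6L (225 and 84.2), higher in animal 1. RSPO2, a Wnt agonist, differed less in the other glutamatergic nuclei (111 and 126 CPM). The animal, its age and its handling by different experimenters cannot be told apart here, and with 1 animal on each side no test was possible.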

How the data were processed

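The authors aligned reads with Cell Ranger (6.1.1 per the submitters' processing notes, 7.1.0 per the matrix headers), introns included, to opossum assembly ASM229v1 with Ensembl release 110 genes extended by up to 5 kb at the 3′ end, and deposited raw UMI counts for each gene in each nucleus. A deposited table of nuclei gave a Scrublet doublet score, a fraction the authors computed per nucleus, with a doublet call and the subclass labels used here. Doublet calls stayed in, and an alternative removed them. Counts of the 2 libraries of an animal were summed per subclass and scaled to CPM with Python 3.11.15, numpy 2.4.6, pandas 2.3.3 and scipy 1.17.1. TMM factors came from edgeR 4.0.16 in R 4.3.3. The IT_B sums held 15766555 UMIs. Of 30800 genes, 11590 had a symbol, and the files' symbols were used. Named genes were the markers, the 25 highest and 15 lowest called genes with a symbol, the 10 longest leads, called list members with up to 5 further members highest in IT_B, and 5 genes each way between the animals. The members and lists were chosen with earlier results of these data known. The calling step was tested on simulated data. Alternatives covered scaling, added CPM, minimum level, doublet calls, weighting, depth and each animal. Types within IT_B (a single label) and promoter sequences were not analysed here.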

Additional observations from a re-analysis of the deposited data

How the results depend on the processing

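With no minimum, 319 genes were higher, 568 lower and 942 highest in IT_B. At 50 CPM, 134 were lower, and the counts either way were 232 against IT_A, 250 against IT_C, 452 against IT_D, 566 against L5NP and 552 against L6CT. Alternatives for counts between pairs, for lowest genes and between animals were chosen after seeing the data. The 612 genes lowest in IT_B became 405 at 50 CPM, 280 with TMM scaling and 348 after thinning to 2000 UMIs. Between the animals, 14 and 33 genes were left at 50 CPM, and 43 and 142 were counted after thinning. Against the other IT subclasses alone 149 genes were lower. The share was 12.1% with IT nuclei as the denominator. With 1 animal at a time, 514 to 545 genes were highest, 1114 to 1175 lowest, 191 to 218 higher and 289 to 298 lower, and 890 to 1149 differed from IT_D and 1475 to 1530 from L6b. Of 1034 values for 94 named genes, 4 changed sign: NECAB1 (−0.21) with equal weights, and CNTNAP4 (0.30), KCNIP1 (0.021) and TENM1 (0.25) against IT subclasses alone. GRM4 (0.97) and EPHB6 (−0.78) were under 2-fold with equal weights, and EPHB6 also with 5 CPM added (−0.88) and after thinning (−0.83). CUX2 (1.35) and HTR2A (1.60) passed 2-fold with equal weights and WHRN (1.25) against IT subclasses alone. Also under 2-fold against IT subclasses alone were PRLR, FOXP2, KIRREL1, GRM8, NFIA, SOX5, KCNK3, KCNMB4, CACNA1E, CDH10, PCDH7, EPHB6, VIPR2, CDH12, CNTN6, HTR7, KCNH7 and SLIT2 (lower genes from −0.99 to −0.38, higher ones from 0.77 to 0.92). Of the 152 higher and 229 lower genes, 152 and 217 remained called with TMM scaling, 152 and 227 without doublet calls, 138 and 205 after thinning, 133 and 191 with equal weights and 114 and 121 against IT subclasses alone. With 2 animals the SDs rest on 1 difference each, and genes near 20 CPM are the least precise.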
